A study of Mus musculus with 194 samples.

Results

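Calling cards record where a transposase has placed a reporter transposon in the genome of living cells, and each line of a deposited table, called a row here, is 1 such insertion. The regions described are 1231 windows of 50 kb on chromosomes 1 to 19 that were relatively rich in insertions in Cre-negative cortex and poorer in the cortex of Syn1Cre mice. A window was included when it held at least 40 rows summed over the 6 Syn1CreNeg animals and when its RPM (rows per 1000000 rows of the table, the unit of every level below) was at least 2 times that of the 6 Syn1Cre animals. Of 47313 windows with at least 1 row, 11744 reached the minimum of 40 rows, and 10.5% of those were included, which left 10513 others for comparison. The windows were thus chosen by the measured rows of Syn1CreNeg and Syn1Cre, so both groups are given below as a description, and tests are limited to other groups.

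All animals were mice given adeno-associated virus on postnatal day 0 to 1. C57bl6J mice received viruses that need no Cre recombinase, per the series design, and the labels name the other groups for their Cre drivers. Syn1Cre is commonly used to drive Cre in neurons and GFAPCre to drive it in astrocytes, and each had 6 Cre-positive and 6 Cre-negative animals (Syn1CreNeg and GFAPCreNeg). Cortex was read in these groups from RNA, in 10 pieces per animal. Frontflip_GFAPCre and Frontflip_GFAPCreNeg, 3 animals each, carried a construct that the labels name and do not describe. Syn1Cre_SP1_P28 (4 animals) and Syn1Cre_SP1_P10 (3 animals) are labelled with the transcription factor SP1 and with P28 or P10, read as postnatal day 28 and 10. The labels do not describe that construct either, and give no age at collection for the other groups. Rbp4Cre_TRAP (4 animals) was whole forebrain of a Cre line used for deep-layer projection neurons, with the RNA taken by TRAP, usually read as translating ribosome affinity purification. BrokenHeart (3 animals) was cortex read from DNA, and N2a, a mouse neuroblastoma line, is 1 table. A tissue was not checked against marker RNA, since rows are insertions and not RNA levels.

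PiggyBac-type transposases insert at the sequence TTAA, mostly in open and active chromatin such as enhancers and promoters. Insertions from bulk cortex therefore mix the active chromatin of every cell type that took up the virus, and a signal from fewer cells of a type and fewer insertions per cell cannot be told apart. Astrocytes take up glutamate, couple through gap junctions and supply neurons with thyroid hormone and lactate. Their enhancers are known to be bound by factors such as SOX9, NFIA and SOX2, which also act in the radial glia from which astrocytes arise.

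The promoters of 6 glial genes in these windows show what an insertion site looks like at base level, and are the 6 with the most rows among the promoters considered of astrocyte, radial glia and oligodendrocyte list genes in these windows. Each is 300 bases from RefSeq (GRCm38.p6), from 250 before to 50 after the gene's start, with every TTAA in capitals. In order these are Dio2 (chr12:90738989-90739288, minus strand), which makes active thyroid hormone, and Gjb6 (chr14:57133562-57133861, minus strand), a gap junction connexin. Next come Nfia (chr4:97581693-97581992, plus strand) and Prdm16 (chr4:154636824-154637123, minus strand), both transcription factors. The last are Ptprz1 (chr6:22875252-22875551, plus strand), a receptor tyrosine phosphatase of glia, and Gja1 (chr10:56377050-56377349, plus strand), the main astrocyte connexin.
Dio2: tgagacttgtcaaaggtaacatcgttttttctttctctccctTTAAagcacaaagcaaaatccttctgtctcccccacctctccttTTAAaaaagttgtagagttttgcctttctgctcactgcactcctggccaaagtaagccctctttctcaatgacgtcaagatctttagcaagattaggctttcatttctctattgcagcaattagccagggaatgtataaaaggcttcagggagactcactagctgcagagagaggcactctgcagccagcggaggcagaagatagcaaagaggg
Gjb6: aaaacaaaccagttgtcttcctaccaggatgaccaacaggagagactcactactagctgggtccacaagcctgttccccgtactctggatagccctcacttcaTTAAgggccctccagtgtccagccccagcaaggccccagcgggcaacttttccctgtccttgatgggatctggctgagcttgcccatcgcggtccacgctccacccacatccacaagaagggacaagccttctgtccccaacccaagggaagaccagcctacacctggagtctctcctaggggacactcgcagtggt
Nfia: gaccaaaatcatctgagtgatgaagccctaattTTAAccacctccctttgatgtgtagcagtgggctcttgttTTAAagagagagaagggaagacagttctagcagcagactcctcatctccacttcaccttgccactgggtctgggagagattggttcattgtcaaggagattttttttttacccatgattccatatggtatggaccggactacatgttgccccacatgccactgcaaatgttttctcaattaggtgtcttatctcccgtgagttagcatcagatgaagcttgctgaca
Prdm16: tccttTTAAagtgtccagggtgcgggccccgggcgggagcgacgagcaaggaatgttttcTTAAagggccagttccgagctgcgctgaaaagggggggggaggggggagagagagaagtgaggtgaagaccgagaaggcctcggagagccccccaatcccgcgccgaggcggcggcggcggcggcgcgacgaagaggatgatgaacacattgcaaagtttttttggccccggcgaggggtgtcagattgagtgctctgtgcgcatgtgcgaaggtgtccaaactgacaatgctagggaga
Ptprz1: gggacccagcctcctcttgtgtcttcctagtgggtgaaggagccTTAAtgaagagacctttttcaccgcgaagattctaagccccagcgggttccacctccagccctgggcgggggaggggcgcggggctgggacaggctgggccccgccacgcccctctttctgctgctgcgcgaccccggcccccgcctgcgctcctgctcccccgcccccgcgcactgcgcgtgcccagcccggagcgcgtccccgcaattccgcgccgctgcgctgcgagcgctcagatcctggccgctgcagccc
Gja1: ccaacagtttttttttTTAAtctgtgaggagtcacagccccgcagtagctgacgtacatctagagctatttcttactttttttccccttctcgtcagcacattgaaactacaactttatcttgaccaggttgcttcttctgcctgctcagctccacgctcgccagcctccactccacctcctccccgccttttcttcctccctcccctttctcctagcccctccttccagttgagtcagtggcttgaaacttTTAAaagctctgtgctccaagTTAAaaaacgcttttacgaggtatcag

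All rows within these 6 promoters lay on a TTAA. Summed over the 9 groups of the Cre lines, the Dio2 promoter held 390 rows, shared between its TTAA 164 bases before the start, with 209, and the one 208 bases before it, with 181. The Gjb6 promoter held 270 rows at its single TTAA, 147 bases before the start, and every one of the 6 animals in each of Syn1CreNeg, GFAPCre and GFAPCreNeg had a row there. At that site the summed level was 10.6 RPM in GFAPCre, 21.4 in GFAPCreNeg, 41.5 in Frontflip_GFAPCre and 28.6 in Syn1Cre_SP1_P28. No row was found there in Rbp4Cre_TRAP or Syn1Cre_SP1_P10. With 0 rows, Rbp4Cre_TRAP may hold up to 17.5 RPM at a floor of 3 counts over the group, which is above the GFAPCre level. The Nfia promoter held 223 rows, of which 203 were at the TTAA 177 bases before the start and 20 at the one 217 bases before it. In Ptprz1 a single TTAA, 206 bases before the start, held 169 rows, with 6.34 RPM in GFAPCre, 12.4 in GFAPCreNeg and 26.8 in Syn1Cre_SP1_P28. In Gja1 the TTAA that begins 2 bases after the start held 80 rows, 30 of them from Syn1Cre_SP1_P28, where the level was 27.7 RPM against 2.31 in GFAPCre. Each TTAA in these 6 sequences held rows, and the sequences differ in how many TTAA they offer and in how many rows each held. A TTAA was present in 49.3% of the 613 promoters within the member windows, in 43.1% of the 6765 promoters in the other windows with at least 40 rows, and in 48.1% of all 21045 promoters of that length.

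The ratio of Syn1CreNeg to Syn1Cre in the members ran from 2.00 to 4.56 with a median of 2.49. It was at least 3 in 259 of them and at least 4 in 12. The members held between 40 and 3692 Syn1CreNeg rows with a median of 138, against a median of 68 rows and a median ratio of 0.968 in the other windows with at least 40 rows. Just inside the limit lay a window in Sipa1l3 (73 Syn1CreNeg rows, 115 Syn1Cre rows, ratio 2.0002), and just outside lay a window of the glial RNA-binding gene Qk (330 and 520 rows, ratio 1.9997). Between 1.9 and 2 times there were 184 windows, against 150 between 2 and 2.1, so the limit cuts through a continuous range. Summed over animals 1 to 3 alone, 1209 of the 1231 had a ratio above 1 and 958 had a ratio of at least 2. Over animals 4 to 6 the counts were 1231 and 921. Animals 4 to 6 gave 83.2% of the members' Syn1CreNeg rows.

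The members were often neighbours. They formed 856 runs of adjoining windows, and 48.5% of the members lay in a run of 2 or more. The longest run was 9 windows over the body of Nfia (chr4:97550001-98000000), a factor that switches progenitors to the glial fate, with 7874 Syn1CreNeg rows and 9684 Syn1Cre rows and ratios from 2.30 to 2.80. Zbtb20, a zinc finger factor of astrocytes and hippocampal neurons, held a run of 8 windows (chr16:42850001-43250000) and most of another of 7 (chr16:43300001-43650000). Runs of 6 covered the glutamate transporter gene Slc1a3 (chr15:8600001-8900000), most of Ptprz1 (chr6:22750001-23050000) and the surroundings of Sox9 (chr11:112750001-113050000). Another run of 6 (chr1:153900001-154200000) reached the glutamine synthetase gene Glul with 1 window. The Glul window with the most Syn1CreNeg rows (170, ratio 1.78) was not a member. The share of windows included ran from 6.49% on chromosome 5 to 14.2% on chromosome 19.

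**Figure D1:**
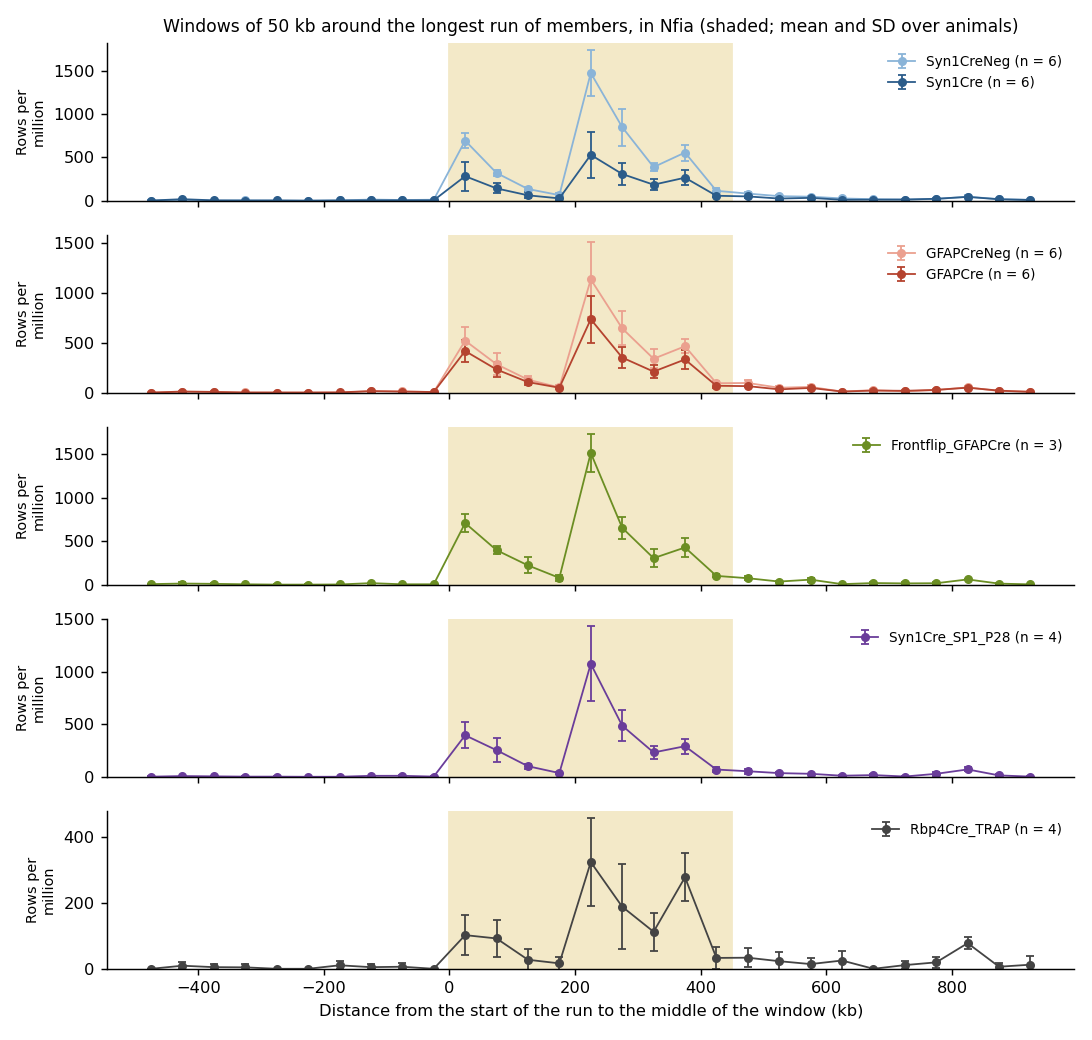
Levels (RPM) in the run of 9 adjoining 50 kb windows over Nfia and in the windows on both sides of it, by distance from the start of the run in kb. Points and bars are the mean and SD over animals of each group (panels have their own vertical scales, and the run is shaded). The window at chr4:97750001-97800000 is the highest in the run, with medians, which are not the plotted means, of 1364 in Syn1CreNeg, 431 in Syn1Cre, 695 in GFAPCre and 1010 in GFAPCreNeg.

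Many members lay outside genes. No protein-coding gene body reached into 290 of them (23.6%), against 11.2% of the other windows with at least 40 rows and 41.8% of all windows with a row. The mean share of bases inside a protein-coding gene was 58.3% in the members and 69.7% in the others, and a gene start was present in 32.6% against 36.2%. The members without a gene lay a median of 65.0 kb from the nearest one, and 74 of them lay over 200 kb away. The member with the most rows was of this kind: chr16:77400001-77450000 lies 283218 bases from Usp25, its nearest protein-coding gene, and held 3692 Syn1CreNeg rows. In all, 939 protein-coding genes touched a member. Whether a row lay in an exon, an intron or an untranslated region was not analysed here.

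Astrocyte genes were common among the genes touched. Of 57 genes on a list of astrocyte markers, 52 overlapped a window with at least 40 Syn1CreNeg rows and 41 of these, 78.8%, overlapped a member. The same held for 10.97% of the 8559 protein-coding genes that overlapped such a window. By window, 92 of 132 astrocyte-list windows were members, with a median ratio of 2.42 against 1.02 over all 11744. These counts describe the choice and carry no test, because the ratio itself chose the windows.

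Among the astrocyte genes reached were transporters and channels, connexins, enzymes and transcription factors. In the window with the most Syn1CreNeg rows of each gene, the ratio was 3.38 for Slc1a3 and 2.23 for Slc1a2, which clear glutamate, and 3.48 for the sodium bicarbonate cotransporter Slc4a4. It was 3.81 for Gja1 and 2.73 for Gjb6. Among secreted proteins and enzymes it was 3.55 for the protease inhibitor Cst3, 4.32 for the phospholipase Pla2g7 and 3.33 for Dio2. Among transcription factors it was 3.08 for Sox9, 3.45 for Prdm16, 3.27 for the hedgehog effector Gli3, 2.80 for Nfia and 2.77 for Zbtb20. The remaining 11 of the 52 had no member. They include markers in frequent use: the ratio in the richest window was 1.42 for Gfap, the intermediate filament gene whose promoter names the GFAPCre line, 1.53 for S100b, 1.65 for Apoe and 1.65 for Nfib, a relative of Nfia. The lowest was that of the amino acid transporter Slc7a10, at 0.833.

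Genes of other glia and of progenitors were reached in part. Of 13 radial glia and progenitor genes that could be assessed, 8 touched a member, among them Sox2 (ratio 2.45), Pax6 (2.61), Sox21 (3.77) and Npas3 (2.98), while the Notch effector Hes1 (0.871) and Lhx2 (0.740) did not. Of 9 assessable oligodendrocyte genes, 5 touched a member: the lineage factors Olig1 (4.05), Olig2 (3.97), Nkx2-2 (3.04) and Sox6 (2.81), and Bcas1 (3.03), a gene of newly forming oligodendrocytes. The myelin gene Mbp stood at 0.900, and most genes of mature oligodendrocytes had no window with 40 rows. Of 4 assessable microglia genes only Sall1 touched a member, with a ratio of 3.82, while P2ry12 was at 1.83. SALL1 also acts in neural progenitors. None of 2 endothelial, 22 neuron and 8 interneuron genes touched a member. The median ratio of their windows was 0.832, 0.802 and 0.633. The neuron list ran from 0.483 for the glutamate transporter gene Slc17a6 to 1.41 for Map2 in the richest window, and the interneuron factors Dlx1 and Dlx2, which share a window, were at 0.179.

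**Figure D2:**
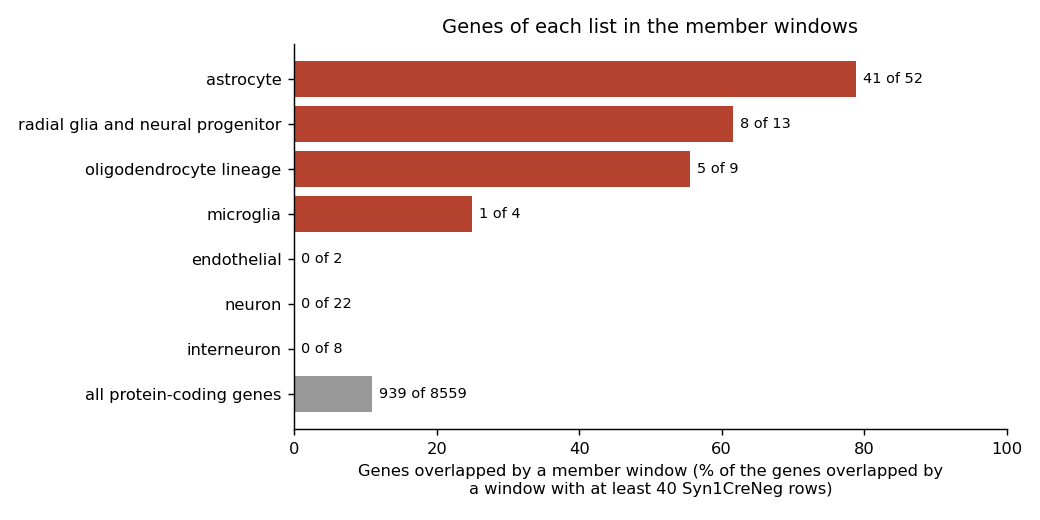
Percent of the genes of each list that a member window overlapped, among the genes overlapped by a window with at least 40 Syn1CreNeg rows; the counts stand beside the bars. The astrocyte bar reaches 78.8%, radial glia 61.5% and oligodendrocyte 55.6%, microglia stands at 1 of 4 genes, endothelial, neuron and interneuron bars are at 0, and all protein-coding genes are at 10.97%.

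The members' share of all rows differed widely between groups. In the groups that chose them it was 16.4% ± 2.00 (SD, n = 6) in Syn1CreNeg and 6.96% ± 3.31 (SD, n = 6) in Syn1Cre, whose animal 5 had 13.5% and the fewest rows of its group. In GFAPCreNeg it ran from 12.1% to 21.9% with a median of 13.2%, and in GFAPCre from 6.62% to 13.3% with a median of 8.93%. It was 12.4%, 14.0% and 18.6% in the 3 Frontflip_GFAPCre animals. The 4 Syn1Cre_SP1_P28 animals had 13.8%, 13.5%, 14.5% and 7.60%, and the 3 Syn1Cre_SP1_P10 animals 7.32%, 8.98% and 6.86%. The lowest shares among the brain groups were those of Rbp4Cre_TRAP, at 3.50%, 3.36%, 3.30% and 3.87%, and the 2 C57bl6J animals had 4.85% and 5.07%. The share was 4.16% in N2a, and 8.26%, 6.01% and 9.23% in BrokenHeart. The 3 Frontflip_GFAPCreNeg animals had the highest, at 26.2%, 36.1% and 27.0%, from tables of 2341 to 9601 rows. All 3 shared sequencing pools with Syn1CreNeg animals, which chose the windows. GFAPCre and GFAPCreNeg overlapped, since GFAPCre animal 3, at 13.3%, lay above the lowest GFAPCreNeg animals. All Frontflip_GFAPCre animals lay above all Rbp4Cre_TRAP animals. By contrast, the other windows with at least 40 rows held between 55.1% and 61.7% of rows in every GFAPCre, GFAPCreNeg, Rbp4Cre_TRAP and SP1 animal.

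**Figure D3:**
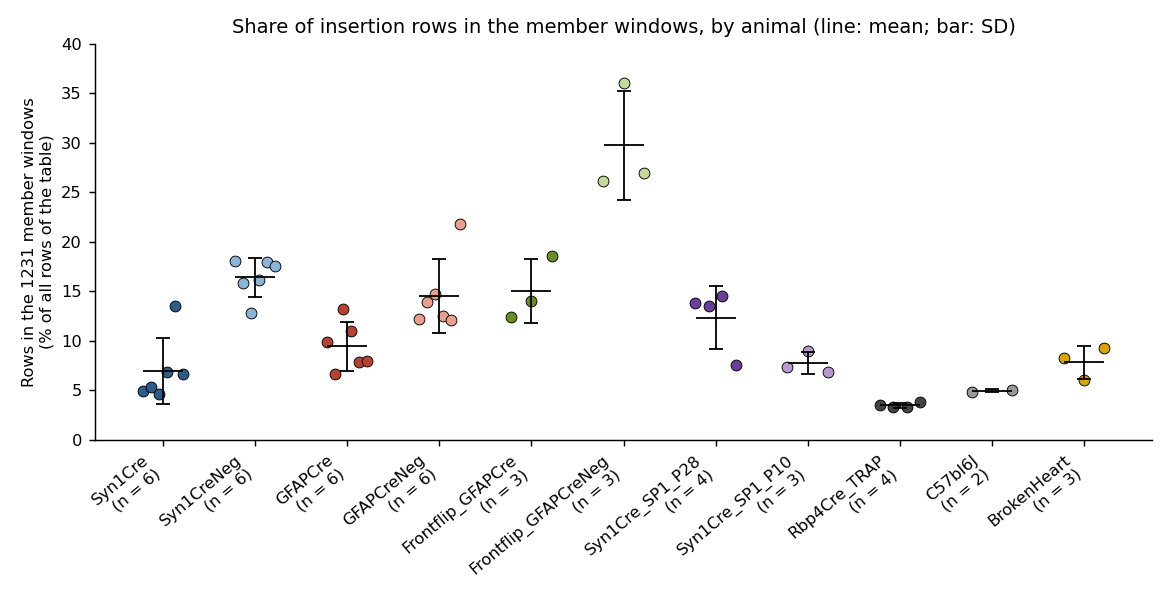
Percent of each animal's rows that lie in the 1231 member windows, by group, with a point per animal and lines for the mean and SD. Rbp4Cre_TRAP lies at 3.30% to 3.87%, GFAPCre at 6.62% to 13.3%, GFAPCreNeg at 12.1% to 21.9% and Frontflip_GFAPCreNeg at 26.2% to 36.1%.

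Depth moved with this share in part of the groups. Tables held between 2341 rows (Frontflip_GFAPCreNeg) and 2186743 rows (C57bl6J), with 97519 to 556145 in Syn1CreNeg, 443158 to 1364948 in Syn1Cre, 600443 to 1505413 in GFAPCre, 208057 to 597230 in GFAPCreNeg, 160631 to 205559 in Frontflip_GFAPCre and 24408 to 57014 in Rbp4Cre_TRAP. In 6 of the 10 groups with at least 3 animals the animal with the fewest rows had the highest share, and in 6 of 10 the animal with the most rows had the lowest. Rbp4Cre_TRAP, with few rows, had low shares. The part of depth in the share was not tested. Several animals were sequenced together. GFAPCre animals 1 to 3 shared pools with Syn1CreNeg animals 1 to 3, and Frontflip_GFAPCre animals 1 and 3 shared pools with Syn1CreNeg animals. Frontflip_GFAPCreNeg animal 1 shared pools with Syn1CreNeg animal 5, and animals 2 and 3 with Syn1CreNeg animals 4 and 6. The part of this sharing in the Frontflip_GFAPCreNeg shares was not tested. No pool held Syn1Cre with Syn1CreNeg, so Cre and the sequencing pool cannot be told apart there.

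**Figure D4:**
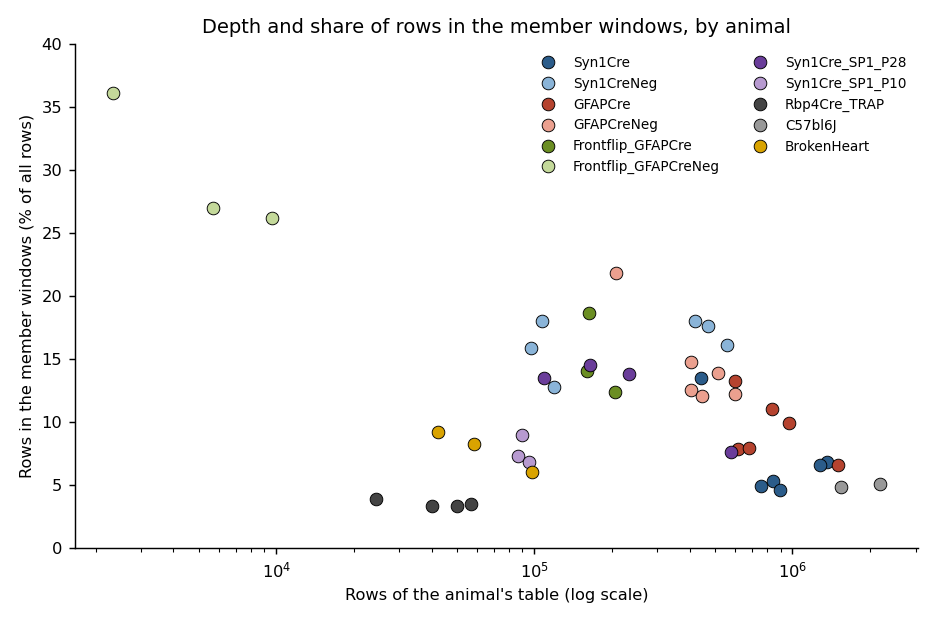
Rows of each animal's table (log axis) against the percent of its rows in the member windows; each point is an animal, coloured by group. Within GFAPCre the share falls from 13.3% in the animal with the fewest rows to 6.62% in the animal with the most, while Rbp4Cre_TRAP has at most 57014 rows and at most 3.87%.

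Many of the members' exact positions recurred between animals. Of the member rows of Syn1CreNeg animals 1 to 3, between 65.7% and 70.4% lay at a position also found in GFAPCre animal 1, 2 or 3, with which they shared pools, taken singly. GFAPCre animal 4, which shared no pool with them, gave 68.0% to 69.5%. For GFAPCre animals 5 and 6 the range was 54.7% to 58.1%. In the other windows with at least 40 rows the same shares, over Syn1CreNeg animals 1 to 3 and GFAPCre animals 1 to 6, ran from 43.8% to 61.7%. For Syn1CreNeg animals 4 to 6, which gave most of the member rows and shared no pool with GFAPCre, the shares over GFAPCre animals 1 to 6 were lower, from 47.8% to 64.4% in the members and from 40.9% to 58.3% in the other windows. Rows per distinct position within an animal differed by group. In GFAPCreNeg there were 1.53 to 1.66 in the members and 1.20 to 1.32 in the other windows, and all GFAPCre, Syn1CreNeg and Frontflip_GFAPCre animals also had more in the members. The order was the opposite in all animals of Rbp4Cre_TRAP (1.02 to 1.03 against 1.03 to 1.05), Syn1Cre_SP1_P10 (1.14 to 1.18 against 1.22 to 1.30) and C57bl6J (1.54 and 1.67 against 1.58 and 1.69), in N2a, and in part of the Syn1Cre, Syn1Cre_SP1_P28 and Frontflip_GFAPCreNeg animals.

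Members were next compared in animals that the rule did not use, with edgeR's quasi-likelihood test on rows per window and Benjamini-Hochberg adjustment over all windows tested on chromosomes 1 to 19 and X, with a threshold of 0.05. Of these, 3 comparisons share the Rbp4Cre_TRAP animals and 4 share the GFAPCre animals, so they are not independent of each other. Log2 fold changes are given with their standard errors.

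GFAPCre cortex held relatively more rows in many members than the forebrain of the projection neuron line. In GFAPCre against Rbp4Cre_TRAP, 451 of the 1138 members tested were higher in GFAPCre and 0 were lower, where 4.77% of all 19913 windows were higher and 0.422% lower (5.19% in either direction). The 0 is edgeR's, and no member was lower at an unadjusted p under 0.05 either, nor with DESeq2. The median log2 fold change was 1.85 in the members, 0.46 in the other windows with at least 40 rows and 0.43 over all windows tested. The 4 Rbp4Cre_TRAP tables held 171833 rows in all, so a window with 0 rows there may hold up to 17.5 RPM at a floor of 3 counts over the group. With such windows set at that bound, the members' median was 1.64. Among the 502 members with over 3 Rbp4Cre_TRAP rows, 222 were called and the median was 1.36. The filter on low counts asked for enough rows in at least 4 animals, and 850 of the 1138 members met it through GFAPCre and not through Rbp4Cre_TRAP, so they had little room to come out lower. The Rbp4Cre_TRAP animals alone would have passed 222 members, of which 119 were higher in GFAPCre and 0 lower. Tissue, RNA isolation, depth and Cre line all differ between these groups and cannot be told apart.

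The Cre-negative animals of the same line gave more calls. In GFAPCreNeg against Rbp4Cre_TRAP, 674 of 956 members tested were higher in GFAPCreNeg and 0 lower, with a background of 12.3% higher and 3.93% lower (16.2% in either direction) among 9880 windows. Again no member was lower at an unadjusted p under 0.05 or with DESeq2. The median log2 fold change was 2.36 in the members, or 2.16 with windows of 0 rows at their bound, against 0.17 in the other windows with at least 40 rows. Here 275 members were not tested, and 815 of those tested passed the filter through GFAPCreNeg and not through Rbp4Cre_TRAP. All 77 tested members with 0 Rbp4Cre_TRAP rows were called. Among the 487 with over 3 rows there, 313 were called and the median was 1.78, and of the 111 that the Rbp4Cre_TRAP animals alone would have passed, 88 were higher in GFAPCreNeg and 0 lower. Scaling by all rows of a table in place of TMM moved the median of all windows from 0.43 to 0.07 in GFAPCre against Rbp4Cre_TRAP and from 0.24 to 0.06 in GFAPCreNeg against Rbp4Cre_TRAP. The share of all calls that were higher in GFAPCre went from 91.9% to 59.2% (74.3% with DESeq2 and 78.0% with distinct positions), and the share higher in GFAPCreNeg from 75.8% to 62.0%.

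The glutamate transporter gene Slc1a3 stood far above the projection neuron libraries. Its window (chr15:8700001-8750000, with the gene's start) held 187, 271 and 436 RPM (lowest, median and highest) in GFAPCre and 365, 420 and 788 in GFAPCreNeg. The 4 Rbp4Cre_TRAP animals had 52.6, 0, 0 and 0. Neither GFAPCre nor GFAPCreNeg overlapped them. With only 3 rows in Rbp4Cre_TRAP, the ratio of summed levels was 16.1 (95% counting interval 5.50 to 78.2) in GFAPCre and 25.2 (8.61 to 122) in GFAPCreNeg. The window met the filter on low counts through GFAPCre or GFAPCreNeg and not through Rbp4Cre_TRAP. It had little room to come out lower, so these values are a description.

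Gap junction and progenitor genes stood above the projection neuron libraries too. The window of the connexin genes Gjb2 and Gjb6 (chr14:57100001-57150000), whose promoter is printed above, had 60.2, 90.4 and 157 RPM in GFAPCre, 154, 200 and 385 in GFAPCreNeg and 0 in all 4 Rbp4Cre_TRAP animals. That is at least 5.32-fold higher in GFAPCre and at least 11.6-fold higher in GFAPCreNeg. The window of Sox2 (chr3:34650001-34700000), which keeps neural progenitors in their state and stays on in astrocytes, had 214, 368 and 590 in GFAPCre, 459, 485 and 981 in GFAPCreNeg and 35.1, 0, 24.96 and 0 in Rbp4Cre_TRAP. Its ratio to Rbp4Cre_TRAP was 20.6 (7.04 to 99.99) in GFAPCre. No animal of either group overlapped the Rbp4Cre_TRAP animals at these windows.

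Genes of the oligodendrocyte and microglia lists also stood above them. The Olig2 window (chr16:91200001-91250000) had 21.9, 44.6 and 102 RPM in GFAPCre and 67.0, 75.9 and 135 in GFAPCreNeg, and 0 in all 4 Rbp4Cre_TRAP animals, at least 2.66-fold and at least 4.60-fold higher. The Sall1 window (chr8:89000001-89050000) had 156, 240 and 390 in GFAPCre, 306, 344 and 654 in GFAPCreNeg and 17.5, 39.7, 24.96 and 0 in Rbp4Cre_TRAP. The log2 fold change was 3.83 (SE 0.51) in GFAPCre. This window met the filter through GFAPCre and not through Rbp4Cre_TRAP, so the value is a description. Sall1 is the only microglia gene whose window was called in GFAPCre against Rbp4Cre_TRAP, out of 9 microglia windows tested.

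The transcription factor windows with the most rows were present in Rbp4Cre_TRAP too, at lower levels. Zbtb20 (chr16:43500001-43550000) had 519, 842 and 1271 RPM in GFAPCre and 1030, 1156 and 2057 in GFAPCreNeg, against 105, 179, 99.8 and 451 in Rbp4Cre_TRAP. The log2 fold change stood at 2.68 (SE 0.31, edgeR adjusted p 1.75e-09) in GFAPCre. Nfia (chr4:97750001-97800000) had 429, 695 and 1116 in GFAPCre and 333, 139, 374 and 451 in Rbp4Cre_TRAP, with a log2 fold change of 1.66 (SE 0.28, edgeR adjusted p 1.59e-05). For Nfia the highest Rbp4Cre_TRAP animal lay above the lowest GFAPCre animal. Ptn (chr6:36750001-36800000), which encodes pleiotrophin, a ligand of PTPRZ1, had 319, 519 and 801 in GFAPCre and 87.7, 139, 49.9 and 0 in Rbp4Cre_TRAP. Its log2 fold change was 3.14 (SE 0.38). Unlike Zbtb20 and Nfia, the Ptn window did not meet the filter through Rbp4Cre_TRAP, so its value is a description.

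The richest member differed from these. The window nearest Usp25 (chr16:77400001-77450000) had 854, 1236 and 1637 RPM in GFAPCre, 1468, 1670 and 2586 in GFAPCreNeg and 1140, 1192, 1448 and 1311 in Rbp4Cre_TRAP. GFAPCre overlapped Rbp4Cre_TRAP on both sides, and the log2 fold change of 0.39 (SE 0.21, edgeR adjusted p 0.313) missed the threshold. Counting distinct positions in place of rows gave -0.61 (adjusted p 0.03675). In GFAPCreNeg the log2 fold change stood at 0.75 (SE 0.23, edgeR adjusted p 0.0211), and -0.10 (adjusted p 0.826) with distinct positions.

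By list, 54 of 136 astrocyte-list windows tested were higher in GFAPCre than in Rbp4Cre_TRAP and 0 lower, all 54 of them members. Over all windows 4.77% were higher and 0.422% lower. No astrocyte-list window outside the members was called, among 48 tested. Of the radial glia list 21 of 34 windows were higher, and of the oligodendrocyte list 11 of 28. Of the neuron list 3 of 100 were higher and 2 lower, and of the interneuron list 2 of 14 were higher and 0 lower. None of 11 endothelial windows was called. The median log2 fold change was 1.76, 2.23 and 1.71 in the 3 glial lists and 0.32 in the neuron list, against 0.43 over all windows. In GFAPCreNeg against Rbp4Cre_TRAP the counts were 72 of 110 astrocyte windows higher, 21 of 30 radial glia windows higher with 2 lower, 13 of 18 oligodendrocyte windows higher with 1 lower, and 3 of 81 neuron windows higher with 7 lower, where 12.3% of all windows were higher and 3.93% lower. These 4 lists had median log2 fold changes of 2.26, 2.84, 3.51 and -0.08, against 0.24 over all windows. Most members tested met the filter on low counts through GFAPCre (850 of 1138) or GFAPCreNeg (815 of 956) and not through Rbp4Cre_TRAP. Such windows had little room to come out lower. How many list windows were of this kind was not counted, so the list counts are a description.

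Members were also poorer in Cre-positive than in Cre-negative animals of the GFAPCre line. Every GFAPCre table held at least 600443 rows and every GFAPCreNeg table at most 597230, so Cre and depth cannot be told apart here. In GFAPCre against GFAPCreNeg, 505 of 1176 members tested were lower in GFAPCre and 0 were higher, where 4.94% of all 16934 windows were lower and 1.2% higher (6.14% in either direction). At an unadjusted p under 0.05, 1 member was higher by edgeR and 0 by DESeq2. The median log2 fold change was -0.60 in the members, 0.01 in the other windows with at least 40 rows and 0.03 over all windows. The count rested in part on single animals: it was 312 without GFAPCre animal 2, which had the most rows, with 1 member then higher in GFAPCre, and 764 without GFAPCre animal 3, which had the fewest. Within the sequencing pools that held both groups, with the pools as a block, it was 157 of 1197. That fit held only GFAPCre animals 4 to 6 and GFAPCreNeg animals 1, 3, 4 and 6. The members' median log2 fold change was -0.70 in it. At an unadjusted p under 0.05 by edgeR, 760 members were lower in GFAPCre there, against 826 with all animals.

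The deiodinase gene Dio2 was among the clearest. Its window (chr12:90700001-90750000) had 80.4, 130 and 180 RPM in GFAPCre and 237, 301 and 548 in GFAPCreNeg, and the 2 groups did not overlap. The log2 fold change stood at -1.41 (SE 0.21, edgeR adjusted p 0.000245). Npas3 (chr12:53750001-53800000), a bHLH-PAS transcription factor gene of progenitors and astrocytes, had 95.7, 131 and 222 in GFAPCre and 271, 332 and 601 in GFAPCreNeg, also without overlap, with -1.40 (SE 0.20, edgeR adjusted p 0.000219). For Gli3 (chr13:15450001-15500000) the values were 74.4, 103 and 172 against 206, 231 and 385, with -1.20 (SE 0.20, edgeR adjusted p 0.000635). The lowest log2 fold change of a called member, -1.52 (SE 0.33, edgeR adjusted p 0.00538), was in Greb1 (chr12:16700001-16750000), at 4.40, 9.59 and 30.0 against 17.3, 29.7 and 57.7.

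Other members moved less between these groups. For Slc1a3 the log2 fold change stood at -0.70 (SE 0.21, edgeR adjusted p 0.0413). For Zbtb20 (chr16:43500001-43550000) it was -0.60 (SE 0.22, edgeR adjusted p 0.0952), for Sox2 -0.60 (SE 0.22, edgeR adjusted p 0.101) and for Olig2 -0.77 (SE 0.25, edgeR adjusted p 0.0585), none of them past the threshold. The window nearest Ptprz1 (chr6:22800001-22850000), 25315 bases from that gene, had 53.1, 103 and 155 in GFAPCre and 89.0, 103 and 149 in GFAPCreNeg, a log2 fold change of -0.09 (SE 0.20, edgeR adjusted p 0.847). Along the Nfia run the values ranged from -0.07 to -0.91, and 2 of the 9 windows passed. By list, 54 of 137 astrocyte windows, 15 of 33 radial glia windows and 6 of 26 oligodendrocyte windows were lower in GFAPCre, against 2 of 95 neuron windows. Over all windows 4.94% were lower and 1.2% higher. Higher in GFAPCre were 0 astrocyte, 1 radial glia, 1 oligodendrocyte and 1 neuron window.

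**Figure D5:**
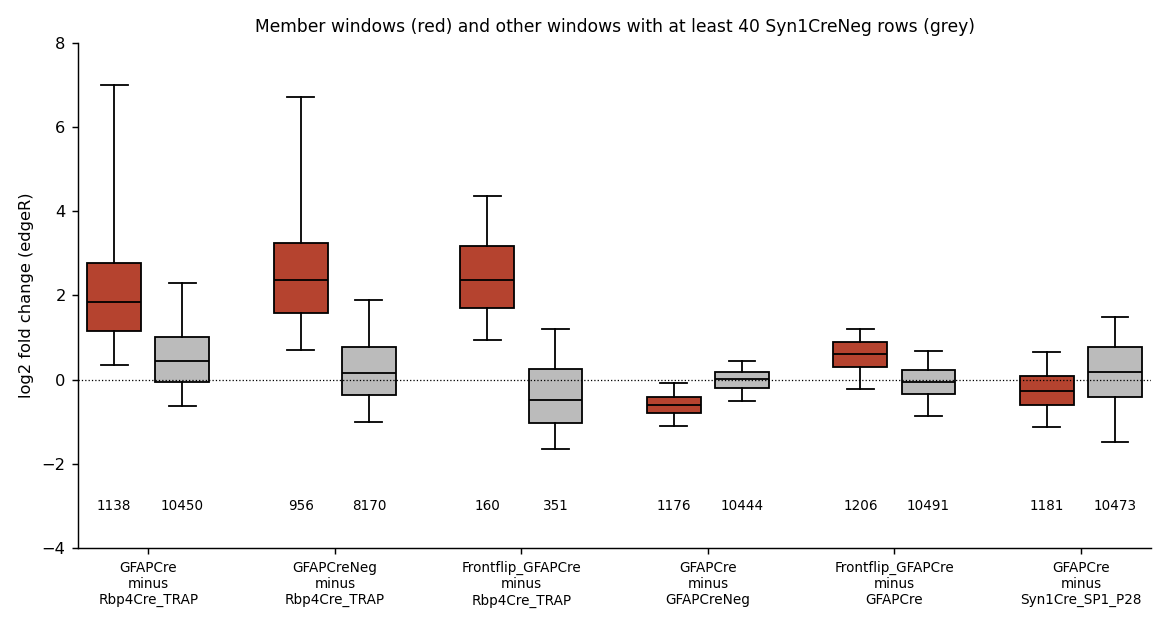
Log2 fold changes per window in the 6 comparisons, for the members and for the other windows with at least 40 Syn1CreNeg rows, as boxes from the lower to the upper quartile with the median as a line, whiskers from the 5th to the 95th percentile and the number of windows tested below. The members' medians are 1.85, 2.36, 2.37, -0.60, 0.62 and -0.26 in the order plotted, and those of the other windows are 0.46, 0.17, -0.49, 0.01, -0.05 and 0.20.

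Few members could be tested between Frontflip_GFAPCre and Rbp4Cre_TRAP, and most of those entered the test because they were high in Frontflip_GFAPCre. Of the 1231 members, 1071 had too few rows. In Frontflip_GFAPCre against Rbp4Cre_TRAP, 157 of 160 members tested were higher in Frontflip_GFAPCre and 0 lower, also at an unadjusted p under 0.05 and with DESeq2. Of the 160, 145 met the filter on low counts through Frontflip_GFAPCre and not through Rbp4Cre_TRAP, so the filter largely set their direction, and the count is given as a description. The Rbp4Cre_TRAP animals alone would have passed 13, of which 12 were higher in Frontflip_GFAPCre and 0 lower. The background was high: of 519 windows with enough rows, 42.6% were higher and 30.8% lower (73.4% in either direction). The other windows with at least 40 rows gave 58 higher and 160 lower of 351, and the median log2 fold change was 2.37 in the members and -0.49 in those. Leaving out any 1 of the Rbp4Cre_TRAP animals let more windows pass the filter, and the members called were then 316 to 337.

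The window values were high in all 3 Frontflip_GFAPCre animals. Slc1a3 had 545, 535 and 808 RPM, a ratio of 35.7 to Rbp4Cre_TRAP (12.1 to 174). Zbtb20 (chr16:43500001-43550000) had 1547, 1575 and 2258, with a log2 fold change of 3.13 (SE 0.21). Ptn had 881, 1089 and 1664, with 3.67 (SE 0.28). Each of these 3 windows was above all 4 Rbp4Cre_TRAP animals in each Frontflip_GFAPCre animal. None of the 3 met the filter on low counts through Rbp4Cre_TRAP. They had little room to come out lower, so their values are a description. The window nearest Usp25 had 2092, 2092 and 2851, all above the highest Rbp4Cre_TRAP animal, with 0.70 (SE 0.12, edgeR adjusted p 6.16e-08).

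Frontflip_GFAPCre and GFAPCre animals also differed in these windows. In Frontflip_GFAPCre against GFAPCre, 181 of 1206 members tested were higher in Frontflip_GFAPCre and 0 lower, where 1.39% of all 20135 windows were higher and 0.134% lower (1.52% in either direction). At an unadjusted p under 0.05, 2 members were lower by edgeR and 2 by DESeq2. The median log2 fold change was 0.62 in the members and -0.05 in the other windows with at least 40 rows. The calls rest on Frontflip_GFAPCre animal 3, whose share in the members was 18.6%: without it no window was called in either direction, with 1933 windows at an unadjusted p under 0.05, among them 281 members higher and 6 lower. Without Frontflip_GFAPCre animal 2 the members called were 27, and without GFAPCre animal 3 they were 384. The Frontflip_GFAPCre tables held 160631 to 205559 rows and those of GFAPCre held 600443 to 1505413, and the part of this gap in the result was not tested. No sequencing pool held animals of both groups, so construct and pool cannot be told apart either. Frontflip_GFAPCre animal 1 shared pools with Syn1CreNeg animals 4 to 6, and animal 3 with Syn1CreNeg animal 5. Syn1CreNeg animals 4 to 6 gave 83.2% of the Syn1CreNeg rows in the members.

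Among named genes, Cpe, whose product trims neuropeptides and which astrocytes also make, had 1576, 1911 and 2472 RPM in Frontflip_GFAPCre (chr8:64650001-64700000) against 583, 818 and 1106 in GFAPCre, without overlap. Its log2 fold change stood at 1.32 (SE 0.22, edgeR adjusted p 0.00313). Lrig1 (chr6:94650001-94700000), a regulator of growth factor receptors, had 384, 299 and 532 against 83.6, 120 and 228, with 1.65 (SE 0.26, edgeR adjusted p 0.00185). The member with the highest log2 fold change among those called held part of 1700012B07Rik (chr11:109750001-109800000), with 146, 162 and 233 against 42.3, 50.4 and 80.4, and 1.74 (SE 0.25, edgeR adjusted p 0.000776). Not past the threshold were Olig2 at 0.36 (SE 0.45, edgeR adjusted p 0.818) and Gli3 at 0.55 (SE 0.30, edgeR adjusted p 0.455). By list, 33 of 141 astrocyte windows, 4 of 36 radial glia windows and 3 of 29 oligodendrocyte windows were higher in Frontflip_GFAPCre, and none was lower. None of 100 neuron windows was called. Over all windows 1.39% were higher and 0.134% lower.

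Between GFAPCre and Syn1Cre_SP1_P28, with all animals in the fit, the members were called toward Syn1Cre_SP1_P28 at about the rate of all windows. SP1 is a factor that binds GC-rich promoters. In GFAPCre against Syn1Cre_SP1_P28, 268 of 1181 members tested were higher in Syn1Cre_SP1_P28 and 36 were higher in GFAPCre. The background here was 22.1% higher in Syn1Cre_SP1_P28 and 22.4% higher in GFAPCre (44.6% in either direction) among 19282 windows, so the members' share of 22.7% higher in Syn1Cre_SP1_P28 was near it, while their 3.05% higher in GFAPCre lay below it. The median log2 fold change was -0.26 in the members and 0.20 in the other windows with at least 40 rows. Without Syn1Cre_SP1_P28 animal 4, which had the lowest share of its group, 429 of 1201 members were higher in Syn1Cre_SP1_P28 and 10 in GFAPCre. All 20476 windows then gave 7504 calls, 50.2% of them higher in GFAPCre. The median log2 fold change was -0.55 in the members and 0.22 over all windows. Members were then called toward Syn1Cre_SP1_P28 more often than all windows. Without animal 1, 2 or 3 they were called less often than all windows, at 180 of 1198, 217 of 1197 and 182 of 1198 members. All windows, 20549, 20508 and 20596, then gave 7502, 8095 and 7800 calls, with 47.9%, 47.8% and 47.5% of them higher in GFAPCre. The members' rate against the background thus depended on single animals. Construct, Cre line and depth differ between these groups and cannot be told apart.

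The members higher in Syn1Cre_SP1_P28 were mostly those with gene starts. A gene start lay in 161 of the 268 (60.1%), in 7 of the 36 higher in GFAPCre (19.4%) and in 220 of the 877 not called (25.1%). Over all windows the order was the same, with a gene start in 72.7% of the 4270 higher in Syn1Cre_SP1_P28, 8.86% of the 4322 higher in GFAPCre and 32.2% of the 10690 not called. The lowest log2 fold change was in a window of Timmdc1 and Poglut1 (chr16:38500001-38550000), with 11.4, 13.2 and 16.7 RPM in GFAPCre and 69.0, 101, 134 and 79.6 in Syn1Cre_SP1_P28, at -2.70 (SE 0.24, edgeR adjusted p 7.49e-11). A window of Marf1, Nde1 and Myh11 (chr16:14150001-14200000) had 21.1, 29.1 and 40.4 against 190, 266, 219 and 107, at -2.60 (SE 0.23, edgeR adjusted p 8.52e-11). Neither overlapped between the groups. The first of these windows held 47 Syn1CreNeg rows, close to the minimum, and none of these genes is on the astrocyte list.

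With animal 4 included, windows of astrocyte genes were called toward Syn1Cre_SP1_P28 at a rate near that of all windows. Of the astrocyte list, 33 of 141 windows were higher in Syn1Cre_SP1_P28, where 22.1% of all windows were, and 10 were higher in GFAPCre, where 22.4% of all windows were. None of those 10 was a member. Dio2 had 332, 303, 443 and 151 in Syn1Cre_SP1_P28, and its log2 fold change stood at -1.28 (SE 0.25, edgeR adjusted p 0.00011). Slc1a3 had 405, 450, 504 and 192 there, with -0.38 (SE 0.25, edgeR adjusted p 0.229). Zbtb20 (chr16:43500001-43550000) had 1319, 1276, 1409 and 587, with -0.42 (SE 0.26, edgeR adjusted p 0.191). In each of these 3 windows animal 4 was the lowest. Of the neuron list, 46 of 98 were higher in GFAPCre and 14 in Syn1Cre_SP1_P28.

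Of the 36 members higher in GFAPCre, 15 held no protein-coding gene. The window nearest Tmem161b (chr13:84550001-84600000), 254035 bases from that gene, had 108, 181 and 306 in GFAPCre and 81.9, 64.2, 115 and 41.6 in Syn1Cre_SP1_P28, with 1.38 (SE 0.30, edgeR adjusted p 0.000372). A window with the interferon-induced genes Gbp7, Gbp3 and Gbp2b (chr3:142550001-142600000) had 9.96, 19.5 and 38.3 in GFAPCre and 4.31, 0, 0 and 6.93 in Syn1Cre_SP1_P28, with 1.97 (SE 0.62, edgeR adjusted p 0.0106). The Syn1Cre_SP1_P10 animals had lower levels than Syn1Cre_SP1_P28 in several members. Slc1a3 had 207, 201 and 126 there, and Sall1 had 104, 111 and 62.9 against 336, 257, 395 and 177 at P28. No animal at P10 overlapped one at P28 at Sall1, and at Slc1a3 the highest at P10 lay above animal 4 at P28. That comparison was not tested.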

How the data were processed

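Insertions came from 47 deposited tables, of which 46 are 1 animal each (11 groups) and 1 is the N2a line. Per the labels' protocols, cortex was divided into 10 pieces indexed apart, and the authors combined them into 1 table per animal. The tables hold 1 line per insertion with its read count, a raw count as the authors deposited it. Read counts were not used: the lines, called rows, were counted. The submitters' processing notes name Novoalign, Bowtie2 and mm10 (GRCm38), with no role or version. Coordinates are 1-based. Groups and replicate numbers are those of the labels; animals were the replicates. BrokenHeart positions are offset by 1 base against the others, which no window value here turns on.

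Rows were counted per 50 kb window of chromosomes 1 to 19 and X and tested with edgeR 4.0.16 in R 4.3.3 (quasi-likelihood test, TMM factors, filterByExpr, Benjamini-Hochberg adjustment, threshold 0.05), with only the groups compared in each fit. Levels are rows per 1000000 rows of a table (RPM). Gene context used 21631 protein-coding genes of RefSeq GRCm38.p6, which give no exons here. A window was named by the genes it overlaps, or else by the nearest. The windows considered for naming were the members with the highest ratio (at least 100 rows), the most rows, the largest called change in each test, the longest run, list genes and the windows nearest the limits, and a selection of them is printed. Alternatives were DESeq2 1.42.0, total rows as scale, no filter, distinct positions, a replicate block, shared pools and leaving out animals. The tests were tried on simulated data first. The members, lists and tests were chosen with earlier results of these data known.

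Intervals and floors cover counting error only. Nothing says that animals were handled apart beyond their labels, so p-values measure the spread between these animals. Windows on chromosome 18 are counted but not described singly, and promoters there were not considered for printing.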

Additional observations from a re-analysis of the deposited data

Results flagged for a closer look

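In 2 of the 4 groups with 4 to 6 animals that did not choose the windows, 1 animal's share of rows in the member windows stood apart from the rest by Dixon's 95% criterion, which chance meets in about 1 in 20 groups. GFAPCreNeg animal 6 had 21.9% of its rows in the members, and its gap to the next animal was 0.725 of the group's range. It also had the fewest rows of its group, 208057. Syn1Cre_SP1_P28 animal 4 had 7.60%, with a gap of 0.858 of the range, and had the most rows of its group, 577609. The part of depth in these values was not tested. Without GFAPCreNeg animal 6, 406 members were lower in GFAPCre than in GFAPCreNeg, against 505 with it.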

How the results depend on the processing

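The number of members, 1231, became 2557 at 1.5 times, 259 at 3 times and 406 with animals 1 to 3 alone, of which 341 were shared, and ranged from 1038 to 1383 when 1 animal was left out. With distinct positions the members' share of rows moved from 4.96% to 4.44% in C57bl6J and from 16.4% to 13.1% in Syn1CreNeg. Counts of calls are given as all windows and then members. GFAPCre against Rbp4Cre_TRAP (1034 and 451) gave 630 and 273 with DESeq2, 2482 and 703 without the low-count filter, 676 and 287 with total rows, and from 550 to 1264 and 290 to 557 with 1 animal left out, the lowest without Rbp4Cre_TRAP animals. GFAPCreNeg against Rbp4Cre_TRAP (1600 and 674) gave 3427 windows without the filter. GFAPCre against GFAPCreNeg (1040 and 505) gave 212 and 157 within shared pools, and from 551 to 1750 and 312 to 764 with 1 animal left out. Frontflip_GFAPCre against Rbp4Cre_TRAP (381 and 157) gave 1480 and 716 without the filter and from 361 to 691 and 145 to 337 with 1 animal left out. Frontflip_GFAPCre against GFAPCre (307 and 181) gave 557 and 283 with distinct positions and from 0 to 705 and 0 to 384 with 1 animal left out. GFAPCre against Syn1Cre_SP1_P28 had 268 members higher in Syn1Cre_SP1_P28, and 180 to 429 with 1 animal left out. With total rows the median of all windows in Frontflip_GFAPCre against Rbp4Cre_TRAP moved from 0.17 to 0.37. Changes of sign were counted only where a value was past the threshold before or after the change of setting. With distinct positions 4 named values changed sign in this way. They were the window nearest Usp25 in GFAPCre (-0.61) and in GFAPCreNeg (-0.10) against Rbp4Cre_TRAP, and Pou3f3 in GFAPCre against Rbp4Cre_TRAP (-0.0635). The last was Nfia at chr4:97550001-97600000 in GFAPCre against Syn1Cre_SP1_P28 (-0.61). The cause was not tested. Of the other values of named windows, 2837 stayed on their side of the threshold, 209 were no longer past it and 170 came past it. Values past it in neither setting may have changed sign and are among the 2837. Leaving out GFAPCre animals 2 and 3 or GFAPCreNeg animal 6, and distinct positions for the shares, were chosen after seeing the data. Depth limits the comparisons with Rbp4Cre_TRAP, where 161 members had 0 rows and 566 had 1 to 3.

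Replicate numbers are shared between groups, but same-numbered animals did not deviate together in every pair of any comparison, with correlations from -0.18 to 0.20. With the replicate number as a block, members higher in Syn1Cre_SP1_P28 fell from 268 to 175. The members called in the other 5 comparisons were 491, 676, 523, 157 and 184, in the order given above.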
